A study of Mus musculus with 24 samples.

Results

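The expression of 47 cell cycle and proliferation genes was followed in freshly sorted and in cultured tissue-resident macrophages (TRMs) of the mouse. The genes were chosen by name and read from a table of 45706 genes. They comprise 5 cyclins and kinases of the G1 phase, 18 genes of DNA synthesis and the entry into S phase, 19 genes of mitosis and 5 inhibitors of cyclin-dependent kinases. All 47 were found in the count table, and RNA was measured by sequencing of bulk libraries.

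The study asked how far macrophages kept in culture resemble the cells of their tissue. Microglia (MG) of the brain, Kupffer cells (KCs) of the liver, peritoneal macrophages (PMs) and alveolar macrophages (AMs) were sorted from female C57BL/6J mice, labelled as 8-12 weeks old, and sequenced directly ("ex vivo"). Their cultured counterparts, termed MG-, KC-, PM- and AM-like cells (LCs), were grown for 14 days from unsorted suspensions of the same organs and were not sorted afterwards ("in vitro"). The sorting gates used CD45 and CD11b, with F4/80 and TIM-4 for KCs, F4/80 and CD115 for PMs and SiglecF for AMs. Each of the 8 groups held 3 libraries. MG-LCs received M-CSF and IL-34, KC- and PM-LCs received M-CSF, and AM-LCs received GM-CSF. MG-, KC- and PM-LCs were kept at 3% oxygen with glucose, and AM-LCs at atmospheric oxygen without added glucose. No group carried a transgene or a deletion. According to the methods, 3 brains, 3 lungs or the peritoneal cells of 3 mice went into 1 flask, but only 1 liver, and up to 50000 cells were sorted per sample. The growth factor, the oxygen level, the glucose and the tissue therefore cannot be told apart between AM-LCs and the other cultures. The sort and the culture cannot be told apart between the ex vivo and the in vitro groups.

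Cells that divide pass through G1, S and G2 phase and mitosis. D-type cyclins with Cdk4 or Cdk6 carry growth factor signals into the cycle by phosphorylating the retinoblastoma protein, which frees E2F factors to switch on the genes of DNA synthesis. Genes of mitosis are switched on later and are held down in resting cells by the DREAM complex. Inhibitors of the Cip/Kip and INK4 families bind cyclin-dependent kinases and hold the cycle back. Several tissue macrophages are known to maintain themselves by local division, and M-CSF, IL-34 and GM-CSF are growth factors for macrophages.

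The upstream sequences of S phase and mitosis genes differ in known elements, which are shown here because the report contrasts these classes. Promoter windows of 300 bases around transcription starts, taken from RefSeq on GRCm38.p6, were found for 39 of the 47 genes and not for Aurkb, Ccna2, Ccnd1, Ccnd2, Ccne2, Cdkn1c, Foxm1 and Mcm4. E2F letters (TTTCCCGC, TTTGGCGC, TTTGCCGC or TTTCGCGC, on either strand, matches allowed to overlap) were found in 7 of 17 S phase windows (41.2%), in 1 of 16 mitosis windows (6.25%) and in 2.26% of all 32817 windows. The CHR letters (TTTGAA or TTCGAA, on either strand), through which DREAM is known to act, were found in 13 of 16 mitosis windows (81.2%), in 3 of 17 S phase windows (17.6%) and in 19.2% of all windows. CCAAT, on either strand, was found in 15 of 16 mitosis windows (93.8%), in 11 of 17 S phase windows (64.7%) and in 37.4% of all windows. The windows of the 4 inhibitors found there (7 windows) held no CHR letters. Such matches describe letters and not bound sites. The 250 bases before the start are printed in the direction of the gene for Mcm5 (chr8:75109259-75109508, plus strand) and Mcm6 (chr1:128359706-128359955, minus strand), whose capitals mark E2F letters on either strand, with overlapping matches run together. They are printed also for Mki67 (chr7:135716380-135716629, minus strand), Top2a (chr11:99024190-99024439, minus strand), Cdk1 (chr10:69352913-69353162, minus strand) and Ube2c (chr2:164769679-164769928, plus strand), whose capitals mark CHR letters on either strand.
Mcm5: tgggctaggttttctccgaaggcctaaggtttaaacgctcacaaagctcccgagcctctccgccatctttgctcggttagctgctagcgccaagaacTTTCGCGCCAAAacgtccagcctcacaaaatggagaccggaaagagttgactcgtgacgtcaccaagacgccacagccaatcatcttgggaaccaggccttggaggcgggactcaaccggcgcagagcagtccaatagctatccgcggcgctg
Mcm6: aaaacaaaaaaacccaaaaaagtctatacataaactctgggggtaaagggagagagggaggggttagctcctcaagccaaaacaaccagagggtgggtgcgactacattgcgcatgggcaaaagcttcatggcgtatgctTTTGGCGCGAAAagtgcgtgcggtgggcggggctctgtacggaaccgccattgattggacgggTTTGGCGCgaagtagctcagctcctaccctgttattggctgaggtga
Mki67: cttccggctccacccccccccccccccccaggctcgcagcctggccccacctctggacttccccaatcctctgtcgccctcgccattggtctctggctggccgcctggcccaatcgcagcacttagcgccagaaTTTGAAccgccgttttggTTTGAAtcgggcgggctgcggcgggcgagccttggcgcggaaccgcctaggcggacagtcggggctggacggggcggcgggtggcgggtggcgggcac
Top2a: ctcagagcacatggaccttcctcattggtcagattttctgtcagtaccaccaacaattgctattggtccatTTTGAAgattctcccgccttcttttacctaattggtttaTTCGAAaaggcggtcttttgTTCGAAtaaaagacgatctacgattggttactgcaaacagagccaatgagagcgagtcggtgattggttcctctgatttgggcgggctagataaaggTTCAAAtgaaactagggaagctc
Cdk1: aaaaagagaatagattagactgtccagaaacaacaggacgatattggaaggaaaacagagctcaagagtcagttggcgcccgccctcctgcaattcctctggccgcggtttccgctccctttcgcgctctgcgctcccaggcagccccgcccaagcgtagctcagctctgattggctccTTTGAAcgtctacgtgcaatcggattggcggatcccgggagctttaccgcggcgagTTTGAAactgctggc
Ube2c: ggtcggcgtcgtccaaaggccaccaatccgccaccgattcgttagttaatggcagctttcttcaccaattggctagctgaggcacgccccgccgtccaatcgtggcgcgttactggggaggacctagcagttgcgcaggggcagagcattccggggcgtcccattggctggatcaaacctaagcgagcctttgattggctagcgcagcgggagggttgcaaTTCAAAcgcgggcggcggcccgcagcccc

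The libraries held 29569486 to 47105111 reads on genes, and 3 reads, the upper limit that a count of 0 allows, corresponded to 0.0661 to 0.114 CPM (read counts scaled to a common library size). CPM below are scaled by TMM factors over all 24 libraries, and per-library values are given for replicates 1, 2 and 3 in this order. The sorted groups expressed the marker genes of their own tissue. P2ry12, Tmem119 and 4 other MG genes summed to 29669.8, 31352 and 27789.6 CPM in MG and to 513, 1470.4 and 3486 CPM in MG-LCs. The mean sum of 6 KC genes was 22718 CPM in KCs and 131 CPM in KC-LCs. The latter was below the 1402 CPM in PM-LCs and the 1033 CPM in MG-LCs (269 to 2319 CPM). The mean sum of 6 PM genes was 18912 CPM in PMs and 310 CPM in PM-LCs. That of 6 AM genes was 24406 CPM in AMs and 5033 CPM in AM-LCs. A list of 8 fibroblast and mesothelium genes (Col1a1, Dcn, Pdgfra and others) stood out in some cultures. It summed to 31146, 7.49 and 1019 CPM in MG-LCs, with all 8 genes detected, against at most 1.45 CPM in MG. It summed to 20.2, 2129 and 359 CPM in PM-LCs and to 17.4, 182 and 1662 CPM in AM-LCs, and did not exceed 28 CPM in KC-LCs. Among the sorted KCs, replicate 1 had the highest sums of 6 T cell genes (162, 21 and 20.4 CPM) and of 7 neutrophil genes (129, 83.2 and 2.03 CPM). All genes of both lists were detected in KCs. Genes of endothelium (365 to 677 CPM over 6 genes) and hepatocytes (124 to 266 CPM over 8) were present in every KC library, with all genes detected, against 13.6 to 39.9 and at most 0.324 CPM in KC-LCs, where Tek, Ptprb and Emcn were at 0. The 6 B cell genes summed to 83.1 to 126 CPM in KCs and to at most 1.12 CPM in KC-LCs. In PM-LCs they summed to 1.09 to 94.8 CPM, with a median of 1.41 CPM over the libraries, against 6.18 to 17.7 CPM in PMs. The 4 lung epithelium genes summed to 159 to 210 CPM in AMs and to 8.78 to 26.7 CPM in AM-LCs. The 7 neutrophil genes summed to 34.5 to 93.1 CPM in AM-LCs, with Ly6g at 0, against 6.49 to 8.16 CPM in AMs. In KC-LCs the T cell list reached at most 2.29 CPM, with Cd3d, Cd3e and Cd3g at 0, and the neutrophil list at most 2.79 CPM, with 1 of 7 genes detected. Results that rest on single libraries are given with and without them.

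Mitosis transcripts set sorted MG and PMs apart from KCs and AMs by a wide margin, whereas KCs and AMs overlapped. The 19 mitosis genes together reached 26, 19.4 and 20 CPM in MG and 99.4, 93.7 and 123 CPM in PMs, but 523, 598 and 599 CPM in AMs and 1151, 372 and 487 CPM in KCs. MG and PMs were thus low in every library, AMs were uniformly high, and KCs were high but variable, with replicate 1 well above the others. In bulk RNA, fewer cycling cells and less RNA per cycling cell cannot be told apart. S phase transcripts were also lowest in MG and next in PMs. The 18 S phase genes summed to 265, 261 and 266 CPM in MG, 387, 391 and 345 CPM in PMs, 882, 882 and 720.0 CPM in KCs and 1017, 1065 and 1025 CPM in AMs. MG had the lowest mean of the sorted groups for 16 of 18 S phase and for 19 of 19 mitosis genes. AMs had the highest mean for 14 S phase genes, and KCs for 14 mitosis genes. The median ratio of the highest to the lowest group mean was 34.3 for mitosis and 5.55 for S phase genes. Across the sorted populations, 46 of the 47 genes differed (edgeR quasi-likelihood F test over 12 libraries, adjusted p under 0.05), where 71.1% of all 15732 genes tested differed. Cdkn1b was the exception (edgeR adjusted p = 0.329).

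**Figure D1:**
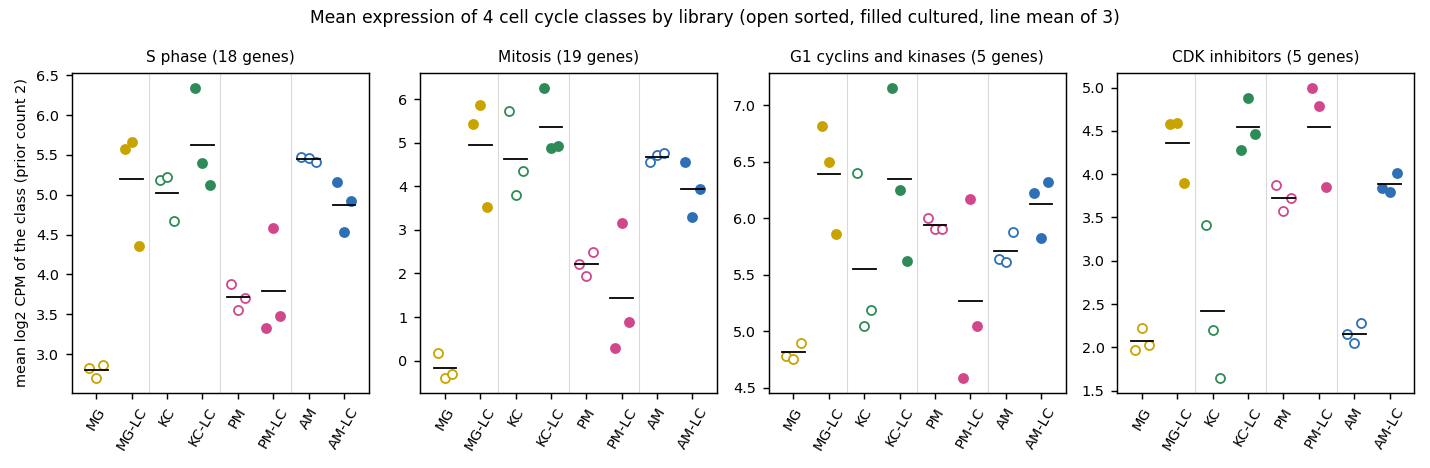
Mean log2 CPM (prior count 2) of the S phase, mitosis, G1 and inhibitor genes in each of the 24 libraries, open circles for sorted and filled circles for cultured cells, with a line at the mean of 3. Sorted MG lie lowest for S phase and mitosis genes, MG-LCs lie above them in every library for all 4 classes, and AM-LCs lie above AMs in every library for the inhibitors. The summed CPM of the inhibitors overlapped instead, at 283 to 352 CPM in AMs and 236 to 460 CPM in AM-LCs.

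After culture the order was another one. The mitosis genes summed to 909, 1238 and 243 CPM in MG-LCs, 1647, 663 and 667 CPM in KC-LCs, 516, 234 and 369 CPM in AM-LCs and 48.3, 201 and 51.8 CPM in PM-LCs. Every MG-LC library was thus far above every MG library, and every AM-LC library was below every AM library, whereas the KC and PM groups overlapped with their cultures. The corresponding S phase sums were 1031, 1226 and 560.4 CPM in MG-LCs, 1854, 1025 and 872 CPM in KC-LCs, 796, 528 and 715 CPM in AM-LCs and 493, 657 and 479 CPM in PM-LCs. PM-LCs had the lowest mean of the cultures for all 19 mitosis genes and for 13 of 18 S phase genes, and KC-LCs the highest for 16 and 14, respectively.

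**Figure D2:**
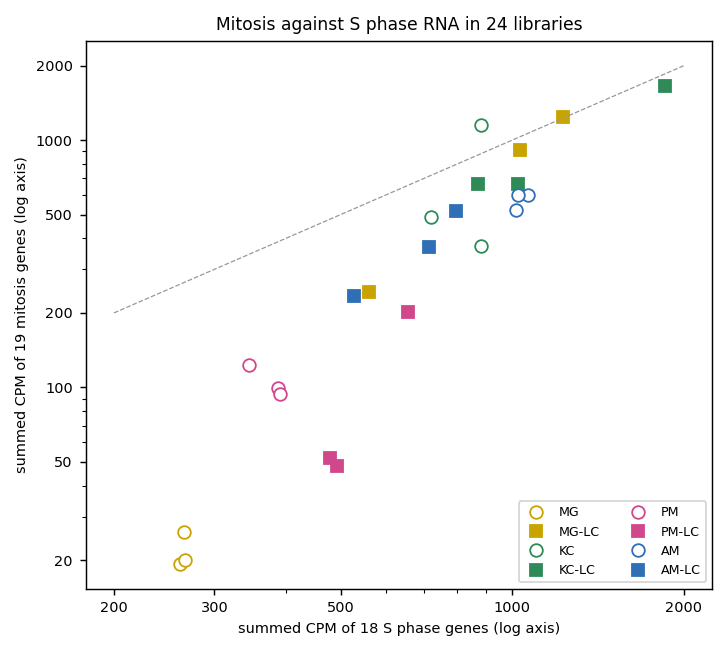
Summed CPM of 19 mitosis genes against summed CPM of 18 S phase genes, both on log axes, for 24 libraries, with a dashed line where the sums are equal. Sorted MG sit apart at the lower left with 19.4 to 26 CPM of mitosis genes, and PM-LC replicates 1 and 3 lie below the PMs in mitosis sums and above them in S phase sums.

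Each culture was compared with its own sorted population, which asks how far culture changed these genes in each tissue. In MG-LCs, 40 of 47 genes were higher than in MG and 0 were lower, where 24.5% of all 14416 genes tested were higher and 22.5% lower (edgeR quasi-likelihood test, adjusted p under 0.05, 3 against 3 libraries). Neither an unadjusted p under 0.05 nor DESeq2 or limma-voom gave a gene that was lower in MG-LCs. In KC-LCs, 7 genes were higher and 0 lower, against 14.4% and 19.4% of 13629 genes. At an unadjusted p under 0.05 the KC counts were 17 and 1, and DESeq2 called 12 higher and 0 lower, and limma-voom 10 and 0. In PM-LCs, 7 genes were higher and 1 was lower, against 16.8% and 12.1% of 13581 genes. In AM-LCs, 5 of 46 genes tested were higher and 19 lower, against 25.9% and 22.9% of 13196 genes. Members whose groups did not overlap numbered 40 higher and 0 lower in MG-LCs (30.1% and 35.3% of all genes), 13 and 0 in KC-LCs (27.1% and 27%), 7 and 3 in PM-LCs (24.4% and 24.4%), and 6 and 22 in AM-LCs (31% and 30.7%). With a log2 fold change beyond 1.5 asked for as well, 36 and 0 members were called in MG-LCs (16.1% and 14% of all genes), 5 and 0 in KC-LCs (7.62% and 14.7%), 5 and 1 in PM-LCs (10.2% and 7.57%), and 2 and 4 in AM-LCs (12.9% and 8.62%). The share of members called higher in KC- and PM-LCs (14.9% in each) was thus near that of all genes, while the 85.1% in MG-LCs and the 41.3% called lower in AM-LCs were above it. Under the limit of 1.5 the lower share in AM-LCs was near that of all genes, and 1 model of all 24 libraries called 10 members lower there.

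The classes moved to different extents. In MG-LCs the median log2 fold change was 5.43 for mitosis genes, 3.47 for inhibitors, 2.22 for S phase genes and 0.87 for G1 genes, beside -0.01 for all genes tested. In KC-LCs the inhibitors had the highest median, 2.24, against 0.51 for S phase and 0.61 for mitosis genes. In PM-LCs the medians were 0.01 for S phase, -0.16 for mitosis, -0.08 for inhibitor and 0.22 for G1 genes. Without PM-LC replicate 2 the PM median was -1.73 for mitosis and -0.78 for G1 genes. In AM-LCs they were -0.68 for S phase, -0.53 for mitosis and -1.4 for G1 genes, and 0.05 for the 4 inhibitors tested. That inhibitor median was 0.17 without AM replicate 2 and 0.54 without AM replicate 3. In both of these fits Cdkn2a passed the filter and entered the median, so these medians and the 0.05 cover different genes. The medians of all genes in the KC, PM and AM comparisons lay between -0.01 and 0.04.

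**Figure D3:**
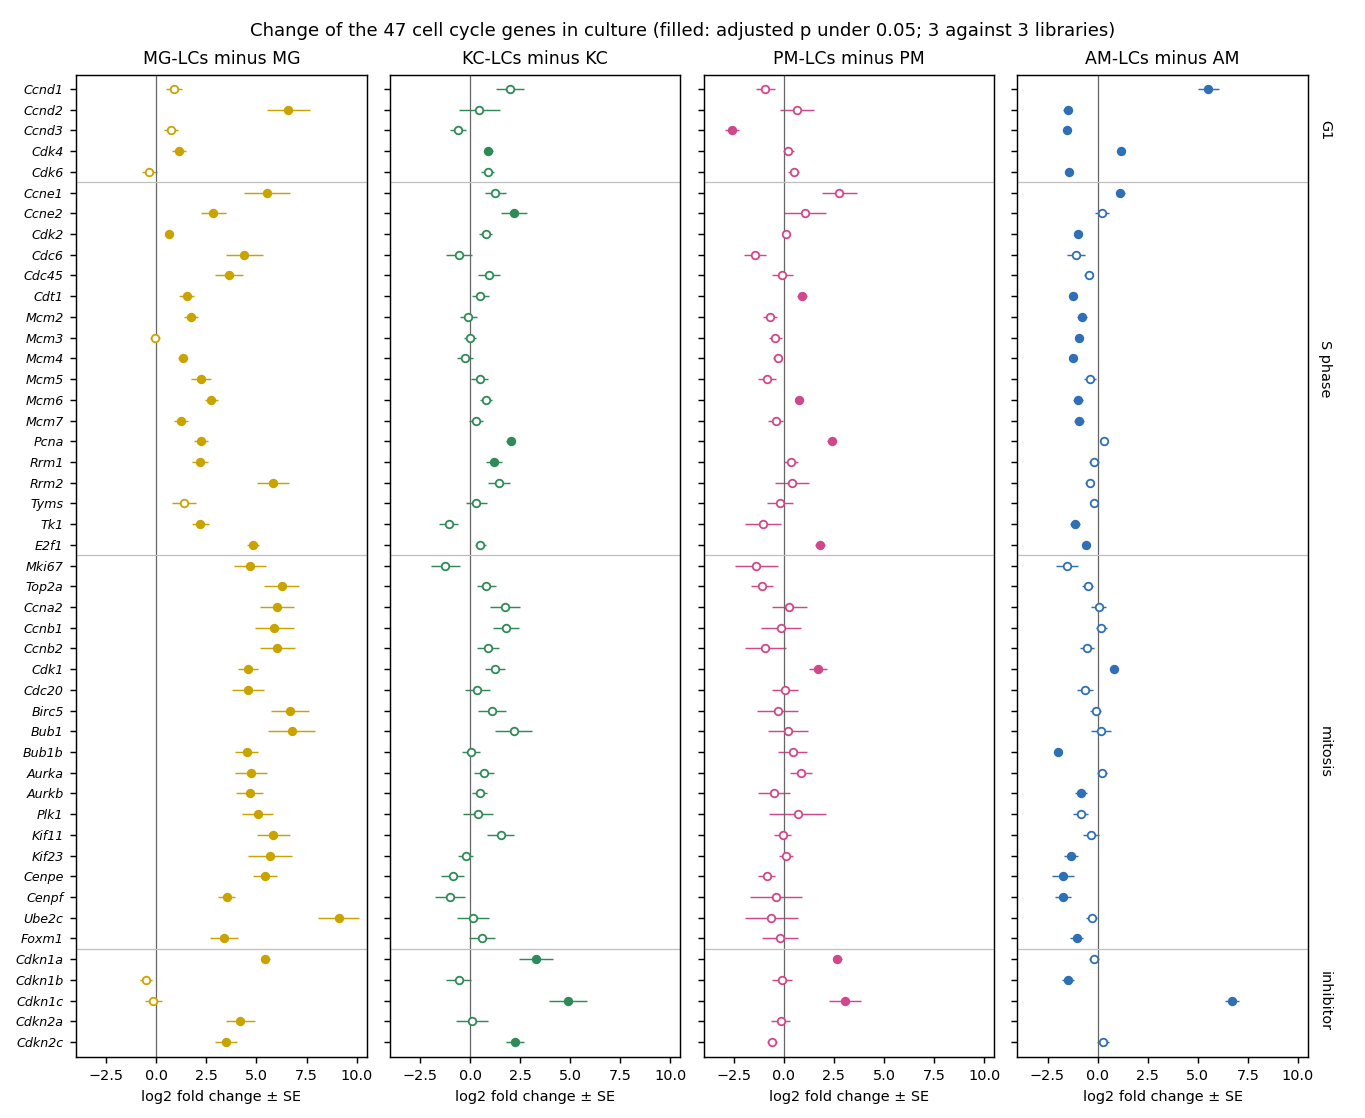
Log2 fold change of each of the 47 genes in culture against sorted cells, with its standard error, in 4 panels for MG, KC, PM and AM; filled circles mark an adjusted p under 0.05, and Cdkn2a was not tested in AM. All 19 mitosis genes lie to the right of 3 in the MG panel, while most AM genes lie left of 0.

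The D cyclins differed by tissue in both level and direction. Ccnd1 had 67.3, 101 and 79.1 CPM in MG against 129, 239 and 83.9 CPM in MG-LCs and 102, 27.7 and 43.2 CPM in KCs against 457, 176 and 81.2 CPM in KC-LCs. It had 121, 96.1 and 103 CPM in PMs against 39.1, 103 and 27.7 CPM in PM-LCs, and 0.986, 0.562 and 1.62 CPM in AMs against 60.4, 25.2 and 58.9 CPM in AM-LCs. The AM groups were far apart, with a log2 fold change of 5.53 ± 0.53 (SE; edgeR adjusted p = 0.0003), whereas the MG groups overlapped in range. Ccnd1 was not called in MG-LCs (log2 fold change 0.87 ± 0.39, edgeR adjusted p = 0.113), KC-LCs (2 ± 0.7, edgeR adjusted p = 0.0601) or PM-LCs (-0.92 ± 0.46, edgeR adjusted p = 0.176). Ccnd1 was called higher in MG-LCs without MG-LC replicate 3 (log2 fold change 1.15), with adjusted p of 0.032 to 0.285 over all alternatives. Ccnd1 was called higher in KC-LCs with DESeq2, with 1 model of all 24 libraries, with no filter on low counts or without KC replicate 1 or KC-LC replicate 3 (log2 fold change 2.72 and 2.44), with adjusted p of 0.0102 to 0.201 over all alternatives. Ccnd1 was called lower in PM-LCs without PM-LC replicate 2 (log2 fold change -1.71), with adjusted p of 0.00151 to 0.371 over all alternatives. Exons of Ccnd1 share 23.4% of their length with LTO1 on the opposite strand, and these unstranded libraries cannot tell the genes apart there.

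Ccnd2, the D cyclin most abundant in AMs, had 312, 365 and 415 CPM in AMs against 95, 130.2 and 157 CPM in AM-LCs. Every AM-LC library was below every AM library, with a log2 fold change of -1.5 ± 0.23 (SE; edgeR adjusted p = 0.0018). The call of Ccnd2 in AM-LCs was lost with 1 model of all 24 libraries (adjusted p 3.33e-09 to 0.238 over all alternatives). In the brain the direction was opposite, with 0.837, 0.514 and 1.26 CPM in MG against 189.6, 33.6 and 24.6 CPM in MG-LCs. MG held hardly any Ccnd2 RNA (38, 19 and 53 reads), all MG-LC libraries were higher, and the change was 6.6 ± 1.07 (edgeR adjusted p = 0.00545). MG-LC replicate 1, the library with the most fibroblast RNA, had the highest Ccnd2, and the call was also made without it. Ccnd2 had 82, 8.8 and 9.87 CPM in KCs against 100.4, 30.7 and 12.9 CPM in KC-LCs, and 9.52, 13.7 and 11.9 CPM in PMs against 2.33, 41.3 and 11.6 CPM in PM-LCs. In both, 1 library stood above its group, namely KC replicate 1, KC-LC replicate 1 and PM-LC replicate 2, and neither comparison was called.

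Ccnd3 had 225, 213 and 209 CPM in PMs against 26, 55.4 and 25.7 CPM in PM-LCs. The PM groups were well apart, and Ccnd3 was the only gene of the 47 called lower in PM-LCs (-2.59 ± 0.33, edgeR adjusted p = 0.00151). In AMs it went the same way, from 146, 167 and 164 to 70.1, 38.5 and 55.7 CPM (-1.53 ± 0.22, edgeR adjusted p = 0.00142). The 51.2, 44.7 and 38 CPM in MG against 106, 73.6 and 42.8 CPM in MG-LCs did not pass the test, nor did the 159, 72.6 and 87.2 CPM in KCs against 95.5, 77.3 and 40.9 CPM in KC-LCs. Ccnd3 was called higher in MG-LCs without MG-LC replicate 3 (log2 fold change 1.03), with adjusted p of 0.0221 to 0.27 over all alternatives. Per kilobase of exon, Ccnd1 made up 70.7 to 80.6% of the D cyclin RNA in MG but 0.206 to 0.543% in AMs, where Ccnd2 made up 66.3 to 69.8%. In KC-LCs the Ccnd1 share per kilobase was 74.1 to 81.8%, above the 39 to 45.5% in KCs, and in AM-LCs it was 22.7 to 41.5%.

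Among the kinase partners, Cdk4 was higher in 3 of 4 cultures. It had 103, 85.3 and 81 CPM in AMs against 193, 205 and 203 CPM in AM-LCs (1.17 ± 0.13, edgeR adjusted p = 0.000581) and 114, 106 and 91 CPM in KCs against 223, 207 and 169.8 CPM in KC-LCs (0.92 ± 0.22, edgeR adjusted p = 0.0157). In the brain the values were 88.7, 94.5 and 86.6 CPM in MG against 299.5, 165 and 122 CPM in MG-LCs (1.14 ± 0.36, edgeR adjusted p = 0.0426). These 3 pairs of groups did not overlap. In PM-LCs Cdk4 was not called, with 167, 144 and 129.5 CPM in PMs against 146, 247 and 121 CPM in PM-LCs, and the difference among the 4 cultures' responses was not called either (edgeR interaction adjusted p = 0.145). The call of Cdk4 in MG-LCs was lost with no filter on low counts or without MG replicates 1, 2 or 3 or MG-LC replicate 2 (adjusted p 0.00276 to 0.128 over all alternatives). The call of Cdk4 in KC-LCs was lost without KC replicate 3 or KC-LC replicates 1 or 2 (adjusted p 0.00115 to 0.0577 over all alternatives). Cdk4 shares 19.7% of its exon length with Tspan31 on the opposite strand. Cdk6 was lower only in AM-LCs among the cultures called, with 62, 87.6 and 76.6 CPM in AMs against 30.3, 23 and 31.4 CPM in AM-LCs (-1.4 ± 0.2, edgeR adjusted p = 0.00129). The other values were 58.2, 59.7 and 68.5 CPM in MG against 23.4, 61.7 and 62.1 CPM in MG-LCs, 29, 21.1 and 19.2 CPM in KCs against 60.3, 29.9 and 40.3 CPM in KC-LCs, and 25.3, 19.3 and 23.3 CPM in PMs against 22.5, 33.4 and 39.2 CPM in PM-LCs. Cdk6 was called higher in KC-LCs with 1 model of all 24 libraries or without KC replicate 1 (log2 fold change 1.09), with adjusted p of 0.0283 to 0.223 over all alternatives. None of those passed the test with all libraries, and the responses differed among populations (edgeR interaction adjusted p = 0.00203).

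**Figure D4:**
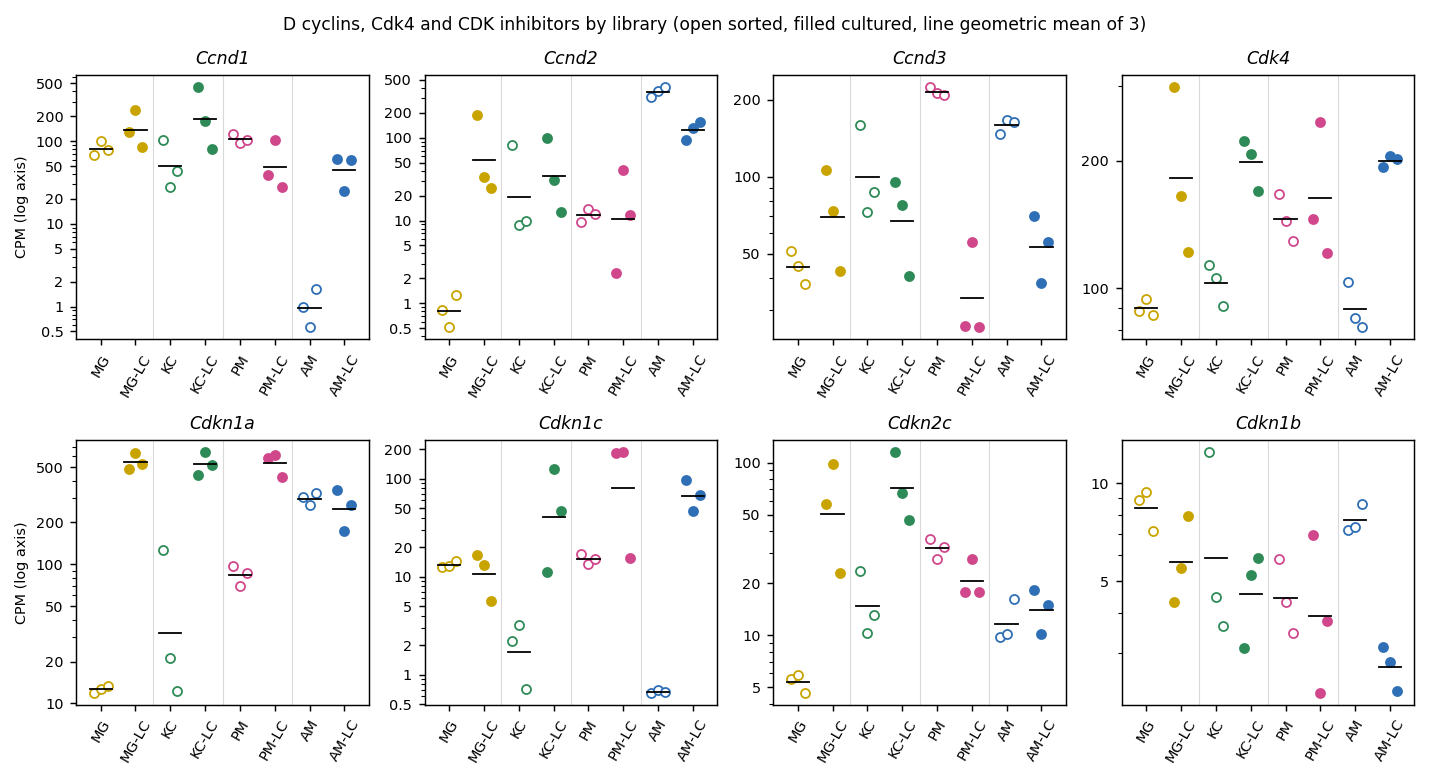
CPM of Ccnd1, Ccnd2, Ccnd3, Cdk4, Cdkn1a, Cdkn1c, Cdkn2c and Cdkn1b in 24 libraries on log axes, open circles sorted and filled circles cultured, with a line at the geometric mean of 3. Cdkn1a reaches 424 to 643 CPM in MG-, KC- and PM-LCs while AMs and AM-LCs overlap, and Cdkn1c rises from below 1 CPM in AMs to 46.8 to 96 CPM in AM-LCs.

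Of the 18 S phase genes, 16 were higher in MG-LCs, 3 in KC-LCs, 4 in PM-LCs and 1 in AM-LCs, where 9 were lower. Beside these, 24.5%, 14.4%, 16.8% and 25.9% of all genes were higher in these cultures, and 22.9% were lower in AM-LCs. The MG count was 8, 7 or 8 without MG replicate 1, 2 or 3, and the lower count in AM-LCs was 6 without AM replicate 1 or 2 and 5 with 1 model of all 24 libraries. E2f1, a transcription factor that drives S phase genes, had the lowest adjusted p of all 47 genes in the interaction test (edgeR adjusted p = 1.34e-08). This does not rank the size of the differences. It had 3.28, 1.76 and 2.05 CPM in MG against 66.7, 74.1 and 61.9 CPM in MG-LCs (4.84 ± 0.3, edgeR adjusted p = 0.000633) and 20.1, 14 and 22.4 CPM in PMs against 67.8, 73.1 and 58.2 CPM in PM-LCs (1.81 ± 0.24, edgeR adjusted p = 0.00159). It was lower in AM-LCs, with 84.2, 84.9 and 97.8 CPM in AMs against 58.2, 64.4 and 53 CPM in AM-LCs (-0.6 ± 0.12, edgeR adjusted p = 0.00489). All 3 pairs of groups were apart. The call of E2f1 in AM-LCs was lost with 1 model of all 24 libraries (adjusted p 0.000113 to 0.0602 over all alternatives). The KC groups overlapped, with 59.8, 73.1 and 40.6 CPM in KCs against 97.1, 87.6 and 67.7 CPM in KC-LCs. In culture, E2f1 thus lay between 53 and 97.1 CPM in all 12 libraries, after a range of 1.76 to 97.8 CPM in sorted cells.

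Pcna, the sliding clamp of DNA polymerases and also a gene of DNA repair, was higher in 3 cultures. It had 29.4, 22.9 and 20 CPM in PMs against 151, 108 and 122 CPM in PM-LCs (2.4 ± 0.22, edgeR adjusted p = 0.000383) and 28.7, 34.3 and 27.2 CPM in KCs against 132, 142 and 106 CPM in KC-LCs (2.04 ± 0.23, edgeR adjusted p = 0.00108). In the brain it had 17.3, 19.3 and 16.2 CPM in MG against 43.7, 125 and 81.6 CPM in MG-LCs (2.24 ± 0.36, edgeR adjusted p = 0.00548). All cultured libraries lay above the sorted ones in these tissues. In AM-LCs the groups did not overlap either, with 59.2, 50.1 and 48.9 CPM in AMs against 73.3, 64.1 and 61.4 CPM in AM-LCs, but the test was not passed (0.34 ± 0.13, edgeR adjusted p = 0.0615). Pcna was called higher in AM-LCs with DESeq2, with RLE size factors, with genes kept at 1 CPM in 3 libraries or without AM replicate 1 (log2 fold change 0.42), with adjusted p of 0.0355 to 0.352 over all alternatives. The annotation holds the processed pseudogenes Pcna-ps1 and Pcna-ps2, so that reads may be divided between the copies.

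The helicase genes responded otherwise. Mcm5, a subunit of the replicative helicase, had 32.3, 33.9 and 23.5 CPM in PMs against 12.1, 29.3 and 8.38 CPM in PM-LCs and was not called (-0.85 ± 0.46, edgeR adjusted p = 0.205). Mcm5 was called lower in PM-LCs without PM-LC replicate 2 (log2 fold change -1.58), with adjusted p of 0.00553 to 0.395 over all alternatives. With all libraries Mcm5 was called only in MG-LCs, with 13.2, 10.9 and 14.9 CPM in MG against 72.5, 88.5 and 21.4 CPM in MG-LCs (2.23 ± 0.52, edgeR adjusted p = 0.0162). The MG groups did not overlap, and MG-LC replicate 3 was the lowest culture. The call of Mcm5 in MG-LCs was lost without MG replicates 1, 2 or 3 (adjusted p 0.000139 to 0.0762 over all alternatives). The other values were 103, 68.5 and 70.8 CPM in KCs against 192, 89.6 and 63 CPM in KC-LCs, and 61, 62.3 and 67.1 CPM in AMs against 62.7, 26.6 and 56.1 CPM in AM-LCs. Of the helicase subunits Mcm2 to Mcm7, all but Mcm5 were lower in AM-LCs, by log2 fold changes of -0.77 ± 0.26 (Mcm2) to -1.22 ± 0.17 (Mcm4). The call of Mcm2 in AM-LCs was lost with RLE size factors, with 1 model of all 24 libraries or without AM replicates 1, 2 or 3 (adjusted p 0.0173 to 0.15 over all alternatives). The call of Mcm6 in AM-LCs was lost without AM replicates 1 or 2 (adjusted p 0.00126 to 0.0627 over all alternatives). The call of Mcm7 in AM-LCs was lost with 1 model of all 24 libraries or without AM replicates 1 or 2 (adjusted p 0.00174 to 0.0581 over all alternatives). In MG-LCs all but Mcm3 were higher. The call of Mcm2 in MG-LCs was lost without MG replicates 1, 2 or 3 (adjusted p 7.32e-05 to 0.0592 over all alternatives). The call of Mcm7 in MG-LCs was lost with limma-voom or without MG replicates 1, 2 or 3 or MG-LC replicate 2 (adjusted p 0.00205 to 0.113 over all alternatives). Mcm3 had the smallest change of the class in MG-LCs (68.3, 71.2 and 71 CPM in MG against 61.2, 93.4 and 46.9 CPM in MG-LCs, -0.06 ± 0.25, edgeR adjusted p = 0.848) and in KC-LCs (86.5, 114 and 82.9 CPM in KCs against 144, 69.3 and 76.5 CPM in KC-LCs, -0.003 ± 0.32, edgeR adjusted p = 0.995). Mcm6 was the subunit called in PM-LCs (0.75 ± 0.2, edgeR adjusted p = 0.0285). The call of Mcm6 in PM-LCs was lost with 1 model of all 24 libraries or without PM replicates 1 or 3 or PM-LC replicates 1 or 2 (adjusted p 0.00589 to 0.136 over all alternatives).

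Rrm2, the regulatory subunit of ribonucleotide reductase, rose most among S phase genes in MG-LCs, with 1.74, 1.35 and 0.811 CPM in MG against 94.8, 107 and 18.8 CPM in MG-LCs (5.83 ± 0.79, edgeR adjusted p = 0.00317). It had 54.5, 47.3 and 18.4 CPM in KCs against 191, 90.5 and 54.9 CPM in KC-LCs, where the groups did not overlap but the test was not passed (1.45 ± 0.54, edgeR adjusted p = 0.0735). Rrm2 was called higher in KC-LCs with DESeq2, with adjusted p of 0.0179 to 0.239 over all alternatives. It had 74.8, 77.8 and 76.2 CPM in AMs against 64.3, 37.4 and 69.2 CPM in AM-LCs, and 8.55, 6.44 and 8.78 CPM in PMs against 1.87, 25.5 and 4.23 CPM in PM-LCs, neither called. PM-LC replicate 2 exceeded both other PM-LC libraries by far. Its partner Rrm1, the large subunit, was higher in KC-LCs (1.18 ± 0.39, edgeR adjusted p = 0.0498) and had the smallest change of the class in AM-LCs (78.7, 102 and 78.1 CPM in AMs against 83.9, 54.2 and 88.7 CPM in AM-LCs, -0.18 ± 0.23, edgeR adjusted p = 0.552). The call of Rrm1 in KC-LCs was lost with RLE size factors, with genes kept at 1 CPM in 3 libraries or without KC replicates 1 or 2 or KC-LC replicates 1 or 3 (adjusted p 0.0172 to 0.154 over all alternatives).

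Tyms, the thymidylate synthase, was not called by edgeR with all 6 libraries in any culture. It had 9.14, 10.6 and 12 CPM in MG against 50.2, 21.7 and 9.26 CPM in MG-LCs (1.38 ± 0.61, edgeR adjusted p = 0.104), where replicate 3 was level with the MG. It had 35.9, 22.4 and 14.8 CPM in KCs against 51.6, 27.5 and 14.6 CPM in KC-LCs, 15.2, 11.6 and 13.3 CPM in PMs against 8.4, 23.5 and 3.29 CPM in PM-LCs, and 25, 22.2 and 18.5 CPM in AMs against 23.1, 16 and 18.5 CPM in AM-LCs. Tyms was called higher in MG-LCs with DESeq2 or without MG-LC replicate 3 (log2 fold change 1.79), with adjusted p of 0.0205 to 0.237 over all alternatives. The responses of Tyms were not called different among populations (edgeR interaction adjusted p = 0.342).

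Cyclin E genes and licensing factors completed the class. Ccne2, a cyclin E that binds Cdk2, had the largest change of the class in KC-LCs, with 2.5, 10.2 and 3.94 CPM in KCs against 44.9, 20.7 and 12.8 CPM in KC-LCs (2.2 ± 0.65, edgeR adjusted p = 0.0349). Ccne1 had the largest change of the class in PM-LCs, with 1.3, 0.273 and 1.38 CPM in PMs against 2, 13.2 and 4.99 CPM in PM-LCs, but was not called (2.77 ± 0.89, edgeR adjusted p = 0.054). It was the S phase gene called higher in AM-LCs, with 12, 15.2 and 11.5 CPM in AMs against 34.2, 22.7 and 27.9 CPM in AM-LCs (1.14 ± 0.22, edgeR adjusted p = 0.00478). Cdt1, which loads the helicase onto origins, fell most of the class in AM-LCs, with 40.8, 38.2 and 40 CPM in AMs against 15.8, 18 and 15.9 CPM in AM-LCs (-1.25 ± 0.14, edgeR adjusted p = 0.000488). All AM-LC libraries were below all AM libraries for Cdt1, while it was higher in PM-LCs (0.89 ± 0.26, edgeR adjusted p = 0.0379) and MG-LCs (1.51 ± 0.38, edgeR adjusted p = 0.0199). The call of Ccne2 in KC-LCs was lost without KC replicates 1 or 3 or KC-LC replicates 1 or 2 (adjusted p 0.00389 to 0.129 over all alternatives). Ccne1 was called higher in PM-LCs with DESeq2, with 1 model of all 24 libraries, with genes kept at 1 CPM in 3 libraries or without PM-LC replicate 1 (log2 fold change 3.19), with adjusted p of 0.00544 to 0.176 over all alternatives. The call of Ccne1 in AM-LCs was lost with 1 model of all 24 libraries (adjusted p 1.53e-05 to 0.277 over all alternatives). The call of Cdt1 in PM-LCs was lost with 1 model of all 24 libraries, with no filter on low counts or without PM replicates 1, 2 or 3 or PM-LC replicates 1 or 2 (adjusted p 0.0105 to 0.154 over all alternatives). The call of Cdt1 in MG-LCs was lost without MG replicates 1, 2 or 3 (adjusted p 0.000897 to 0.0852 over all alternatives). Cdc45, a helicase cofactor, had the smallest change in PM-LCs (4.51, 2.45 and 5.69 CPM in PMs against 2.07, 5.47 and 4.38 CPM in PM-LCs, -0.08 ± 0.53, edgeR adjusted p = 0.921).

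Of the 19 mitosis genes, 19 were higher in MG-LCs, 0 in KC-LCs, 1 in PM-LCs and 1 in AM-LCs, and 6 were lower in AM-LCs. The shares of all genes were 24.5%, 14.4%, 16.8% and 25.9% higher in the same order, and 22.9% lower in AM-LCs. In KC-LCs, 4 mitosis genes had an unadjusted p under 0.05, and DESeq2 and limma-voom called 3 each. Mki67, which encodes the proliferation antigen Ki-67 (chr7:135689784-135716361 on GRCm38), had 1.83, 0.514 and 1.5 CPM in MG against 27.2, 59.6 and 12.2 CPM in MG-LCs. Each MG-LC library was above each MG library, with a log2 fold change of 4.67 ± 0.78 (SE; edgeR adjusted p = 0.00589). In every other tissue the change of Mki67 was below 0 and none passed the edgeR test with all 6 libraries, namely -1.24 ± 0.72 in KC-LCs (edgeR adjusted p = 0.218), -1.37 ± 1.06 in PM-LCs (edgeR adjusted p = 0.37) and -1.53 ± 0.56 in AM-LCs (edgeR adjusted p = 0.0545). It had 151, 29.4 and 60.2 CPM in KCs against 67.6, 14.5 and 23.4 CPM in KC-LCs, 11.5, 9.98 and 10.8 CPM in PMs against 0.226, 10.4 and 1.82 CPM in PM-LCs, and 34.4, 51.1 and 41.7 CPM in AMs against 13.7, 4.54 and 24.6 CPM in AM-LCs. The AM groups did not overlap, while PM-LC replicate 2 reached the level of PMs and the other PM-LC libraries did not. Mki67 was called lower in PM-LCs without PM-LC replicate 2 (log2 fold change -3.4), with adjusted p of 0.0144 to 0.533 over all alternatives. Mki67 was called lower in AM-LCs with DESeq2, with limma-voom, with no filter on low counts or without AM-LC replicates 2 or 3 (log2 fold change -1.11 and -2.24), with adjusted p of 0.00774 to 0.202 over all alternatives.

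Top2a, the DNA topoisomerase that untangles chromosomes, had 2.33, 0.568 and 0.859 CPM in MG against 98.3, 161 and 30.6 CPM in MG-LCs (6.25 ± 0.89, edgeR adjusted p = 0.00374). It had 105, 47.5 and 51.1 CPM in KCs against 206, 66.2 and 97.9 CPM in KC-LCs, 9.45, 15.8 and 19 CPM in PMs against 5.17, 12.4 and 3.24 CPM in PM-LCs, and 57.5, 72 and 65 CPM in AMs against 59.2, 28 and 50.2 CPM in AM-LCs. None of these 3 passed the test, and their ranges overlapped. Top2a was called lower in PM-LCs without PM-LC replicate 2 (log2 fold change -1.85), with adjusted p of 0.0133 to 0.409 over all alternatives. Top2a was 1 of 3 mitosis genes that differed among the 4 cultures (edgeR adjusted p = 0.0295).

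Cdk1, the kinase of mitotic entry, was the mitosis gene called in the most tissues. It had 3.7, 3.03 and 2.2 CPM in MG against 90.6, 91.1 and 30.5 CPM in MG-LCs (4.58 ± 0.52, edgeR adjusted p = 0.00202) and 6.18, 4.36 and 8.57 CPM in PMs against 13.8, 33.9 and 13.9 CPM in PM-LCs (1.69 ± 0.45, edgeR adjusted p = 0.0299). It had 28.1, 26.6 and 26.3 CPM in AMs against 50.7, 35.7 and 54.7 CPM in AM-LCs (0.82 ± 0.2, edgeR adjusted p = 0.0119). In all 3 the cultures lay above the sorted cells. Cdk1 was not called in KC-LCs, with 54.6, 20.6 and 28 CPM in KCs against 137, 63.4 and 50.6 CPM in KC-LCs (1.24 ± 0.49, edgeR adjusted p = 0.0866). The call of Cdk1 in PM-LCs was lost without PM replicates 1, 2 or 3 or PM-LC replicate 2 (adjusted p 0.00283 to 0.118 over all alternatives). The call of Cdk1 in AM-LCs was lost with 1 model of all 24 libraries or without AM replicate 3 (adjusted p 0.000658 to 0.202 over all alternatives). Cdk1 was called higher in KC-LCs with 1 model of all 24 libraries or without KC replicate 1 (log2 fold change 1.76), with adjusted p of 0.0241 to 0.274 over all alternatives. Its partner Ccnb1, cyclin B1, had 0.595, 0.487 and 0.119 CPM in MG against 29.7, 36.5 and 5.31 CPM in MG-LCs (5.89 ± 0.99, edgeR adjusted p = 0.00595) and 15.6, 3.37 and 4.99 CPM in KCs against 45.7, 19.9 and 20.4 CPM in KC-LCs (1.8 ± 0.64, edgeR adjusted p = 0.0627). It had 1.9, 1.28 and 4.2 CPM in PMs against 1.1, 5.22 and 0.329 CPM in PM-LCs, and 11, 9.72 and 12.5 CPM in AMs against 17.7, 10 and 9.58 CPM in AM-LCs, neither called. Ccnb1 was called higher in KC-LCs with DESeq2, with limma-voom, with no filter on low counts or without KC replicate 1 (log2 fold change 2.75), with adjusted p of 0.00725 to 0.194 over all alternatives. Ccnb1 was thus not called in PM- and AM-LCs, where Cdk1 was, and the difference between these genes was not tested. Ccnb1 and Ccnb2 have processed pseudogenes in the count table.

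Plk1, a kinase of spindle assembly, had 0.859, 1.3 and 0.883 CPM in MG against 49.9, 42.7 and 8.08 CPM in MG-LCs (5.06 ± 0.76, edgeR adjusted p = 0.00443). In PM-LCs it ranged widely, with 1.6, 2.59 and 2.06 CPM in PMs against 0.0323, 9.46 and 0.582 CPM in PM-LCs, and replicate 1 held 1 read. It had 53.9, 6.54 and 21.4 CPM in KCs against 63.4, 27.4 and 19.9 CPM in KC-LCs, and 17.3, 18.7 and 25.7 CPM in AMs against 18.1, 7.14 and 8.97 CPM in AM-LCs, with no call. Plk1 was called lower in AM-LCs without AM-LC replicate 1 (log2 fold change -1.31), with adjusted p of 0.0107 to 0.557 over all alternatives. The largest change of all 47 genes was that of Ube2c, a ubiquitin-conjugating enzyme of the anaphase-promoting complex, in MG-LCs. It had 5, 3 and 3 reads in MG and 2481, 3110 and 334 reads in MG-LCs (9.11 ± 1.03, edgeR adjusted p = 0.002), and its size depends on the few reads in MG. Ube2c shares 22.8% of its exon length with Tnnc2 on the opposite strand. Foxm1, a transcription factor for mitosis genes, had the smallest change of the class in MG-LCs, with 2.27, 2.68 and 2.51 CPM in MG against 29.5, 42.4 and 6.17 CPM in MG-LCs (3.39 ± 0.7, edgeR adjusted p = 0.0108). The call of Foxm1 in MG-LCs was lost with limma-voom or without MG replicates 1, 2 or 3 (adjusted p 2.07e-06 to 0.0649 over all alternatives).

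Other genes had the largest or smallest change of the class in the other tissues. Bub1, a checkpoint kinase, had the largest change in KC-LCs, with 21.2, 1.79 and 3.79 CPM in KCs against 74.5, 25.2 and 25.2 CPM in KC-LCs, and was not called (2.17 ± 0.91, edgeR adjusted p = 0.103). Bub1 was called higher in KC-LCs with DESeq2, with limma-voom or without KC replicate 1 (log2 fold change 3.87), with adjusted p of 0.00667 to 0.292 over all alternatives. Bub1b, which encodes the checkpoint protein BubR1, had the smallest there, with 40.4, 23.2 and 49.4 CPM in KCs against 68.4, 23.5 and 29 CPM in KC-LCs (0.05 ± 0.46, edgeR adjusted p = 0.94). In AM-LCs Bub1b was the gene that fell most, with 75.8, 88.1 and 85.6 CPM in AMs against 25.3, 18.2 and 19 CPM in AM-LCs (-1.99 ± 0.16, edgeR adjusted p = 0.000154), a 3.97-fold difference without overlap. Aurkb, Kif23, Cenpe, Cenpf and Foxm1 were the other mitosis genes called lower in AM-LCs, by -0.84 ± 0.28 (Aurkb) to -1.73 ± 0.56 (Cenpe). Of the 6 mitosis genes lower in AM-LCs, 3 were called without AM replicate 1 (Bub1b, Cenpf and Foxm1), 2 without AM replicate 2 or 3 (Bub1b and Cenpf), and 2 with 1 model of all 24 libraries (Bub1b and Cenpe). Without AM-LC replicate 1, 9 mitosis genes were lower. Ccna2, cyclin A2, had the smallest change in AM-LCs, with 26.3, 32 and 37.2 CPM in AMs against 51.7, 16.3 and 30 CPM in AM-LCs (0.04 ± 0.38, edgeR adjusted p = 0.935). Kif11, a spindle motor, had the smallest in PM-LCs, with 4.64, 3.38 and 3.36 CPM in PMs against 4.26, 4.42 and 2.3 CPM in PM-LCs (-0.06 ± 0.44, edgeR adjusted p = 0.935).

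PM-LC replicate 2 and KC replicate 1 decided several of these results. The share of all genes called was not taken for fits without a library, so the counts below cannot be set beside it. Without PM-LC replicate 2, which had 201 CPM of mitosis genes and 2129 CPM of the fibroblast list, 14 genes were lower in PM-LCs in place of 1, and 4 higher in place of 7. The 14 were Birc5, Ccna2, Ccnb2, Cenpf, Mki67, Top2a and Ube2c of the mitosis class, Cdc6, Mcm2, Mcm5 and Tk1 of the S phase class, and Ccnd1, Ccnd3 and Cdkn2c. The direction of Ccna2 turned, to -1.59 ± 0.48. Without KC replicate 1, 17 genes were higher in KC-LCs in place of 7, 9 of them mitosis genes, Ccnb1 among them (2.75 ± 0.50). Without KC-LC replicate 1, 4 genes were higher (Cdkn1a, Cdkn1c, Cdkn2c and Pcna) and Tk1 was lower, and without KC-LC replicate 2 there were 4 higher and none lower. In the MG comparison all 40 genes were also called without MG-LC replicate 1, the library with 31146 CPM of the fibroblast list. The part of fibroblast RNA in the culture results was not tested beyond these fits. Nor was that of endothelial, hepatocyte, B cell, T cell and neutrophil RNA in the KC results. The part of B cell RNA in the PM results, and of lung epithelium and neutrophil RNA in the AM results, was not tested either.

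**Figure D5:**
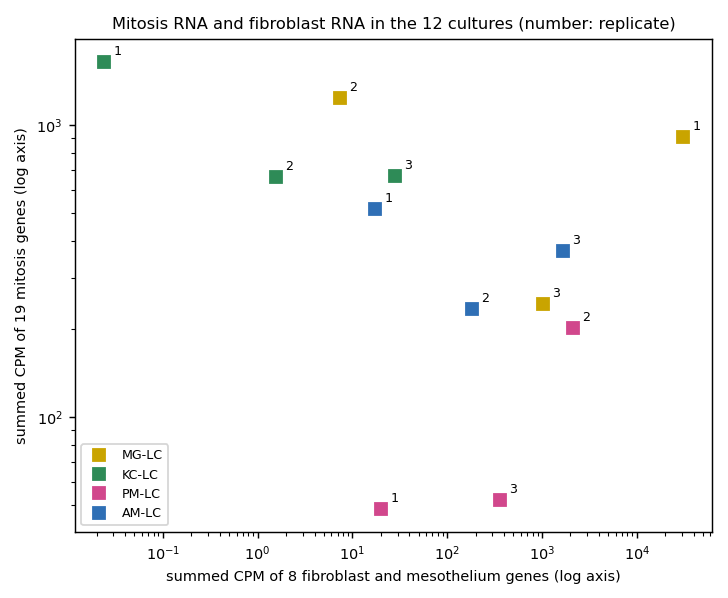
Summed CPM of 19 mitosis genes against summed CPM of 8 fibroblast and mesothelium genes, both on log axes, in the 12 cultured libraries, each numbered by replicate. MG-LC replicate 2 and KC-LC replicate 1 have the highest mitosis sums (1238 and 1647 CPM) at 7.49 and 0.024 CPM of fibroblast genes, and PM-LC replicate 2 is highest in both among PM-LCs.

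Of the 5 inhibitors, 3 were higher in MG-LCs, 3 in KC-LCs, 2 in PM-LCs and 1 in AM-LCs, where 1 was lower. Among all genes, 24.5%, 14.4%, 16.8% and 25.9% were higher in the same order, and 22.9% were lower in AM-LCs. Cdkn1a, which encodes p21 and is a well-known target of p53 (chr17:29090976-29100727 on GRCm38), had 12, 12.7 and 13.4 CPM in MG against 481, 629 and 529 CPM in MG-LCs and 96.4, 70.2 and 87.1 CPM in PMs against 586, 612 and 424 CPM in PM-LCs. It had 126, 21.2 and 12.2 CPM in KCs against 441, 643 and 514 CPM in KC-LCs, and 302, 265 and 327 CPM in AMs against 342, 174 and 268 CPM in AM-LCs. MG-, PM- and KC-LC libraries were thus all above their sorted cells, at similar levels, whereas AM and AM-LC libraries overlapped. The changes were 5.43 ± 0.22 in MG-LCs (43.1-fold; edgeR adjusted p = 0.00052), 3.29 ± 0.85 in KC-LCs (9.75-fold; edgeR adjusted p = 0.021) and 2.67 ± 0.22 in PM-LCs (6.38-fold; edgeR adjusted p = 0.000232). In AM-LCs Cdkn1a was not called (-0.18 ± 0.24, edgeR adjusted p = 0.57). KC replicate 1 was high among the KCs, and without it the KC change was 4.98 ± 0.38 (log2). The call of Cdkn1a in KC-LCs was lost without KC replicate 2 or KC-LC replicate 2 (adjusted p 6.16e-05 to 0.0654 over all alternatives). The difference among populations passed the test (edgeR interaction adjusted p = 0.000158).

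Cdkn1c, which encodes p57 (chr7:143458339-143461050 on GRCm38), had the largest change of the 47 genes in AM-LCs. It had 0.657, 0.69 and 0.671 CPM in AMs against 96, 46.8 and 67.4 CPM in AM-LCs (6.7 ± 0.33, edgeR adjusted p = 4.70e-05). In KC-LCs it was higher too but uneven between replicates, with 2.2, 3.19 and 0.713 CPM in KCs against 11.1, 126 and 47.2 CPM in KC-LCs (4.89 ± 0.96, edgeR adjusted p = 0.00782). In PM-LCs replicates 1 and 2 were high and replicate 3 was level with PMs, with 17, 13.5 and 15.2 CPM in PMs against 184, 187 and 15.4 CPM in PM-LCs (3.07 ± 0.8, edgeR adjusted p = 0.0268). The call of Cdkn1c in PM-LCs was lost with limma-voom or without PM replicates 1, 2 or 3 or PM-LC replicate 1 (adjusted p 6.43e-05 to 0.115 over all alternatives). MG-LCs were not called, with 12.5, 12.8 and 14.4 CPM in MG against 16.8, 13.1 and 5.6 CPM in MG-LCs (-0.15 ± 0.42, edgeR adjusted p = 0.787). Of the exon length of Cdkn1c, 30.7% is shared with the antisense gene Gm44732, whose reads cannot be told apart from it there.

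Cdkn2c, which encodes the INK4 inhibitor p18, was higher in MG- and KC-LCs. It had 5.57, 5.87 and 4.65 CPM in MG against 57.2, 98.6 and 22.8 CPM in MG-LCs (3.47 ± 0.54, edgeR adjusted p = 0.00471) and 23.5, 10.3 and 13 CPM in KCs against 115, 66.4 and 46.5 CPM in KC-LCs (2.24 ± 0.45, edgeR adjusted p = 0.00823). It had 36.2, 27.7 and 32.6 CPM in PMs against 17.9, 27.6 and 17.7 CPM in PM-LCs, and 9.71, 10.1 and 16.2 CPM in AMs against 18.3, 10.2 and 14.9 CPM in AM-LCs, neither called. Cdkn2c was called lower in PM-LCs without PM-LC replicate 2 (log2 fold change -0.88), with adjusted p of 0.0216 to 0.306 over all alternatives. Cdkn2c was the only inhibitor that differed among the 4 cultures (edgeR adjusted p = 0.0348).

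Cdkn1b, which encodes p27 and marks resting cells, was low everywhere and lower in AM-LCs, with 7.2, 7.31 and 8.6 CPM in AMs against 3.14, 2.82 and 2.3 CPM in AM-LCs (-1.48 ± 0.28, edgeR adjusted p = 0.00432). It had 8.9, 9.36 and 7.13 CPM in MG against 4.31, 5.5 and 7.91 CPM in MG-LCs, 12.5, 4.46 and 3.65 CPM in KCs against 3.12, 5.21 and 5.88 CPM in KC-LCs, and 5.85, 4.31 and 3.47 CPM in PMs against 6.94, 2.27 and 3.77 CPM in PM-LCs, none called. Its responses were not called different among populations (edgeR interaction adjusted p = 0.31). Cdkn2a, the locus of p16 and p19Arf, was near the detection limit, with 3, 7 and 5 reads in MG and 150, 69 and 45 reads in MG-LCs (0.0661, 0.189 and 0.119 CPM in MG against 3.85, 1.72 and 1.29 CPM in MG-LCs, 4.2 ± 0.74, edgeR adjusted p = 0.00684). In AMs it had 2, 1 and 1 reads and in AM-LCs 8, 55 and 47 reads, and it was removed by the filter on low counts there. It was called higher in AM-LCs with no filter, with 1 model of all 24 libraries, and without AM replicate 1, 2 or 3 or AM-LC replicate 1. It had 1.55, 0.571 and 0.599 CPM in KCs against 1.51, 0.722 and 0.731 CPM in KC-LCs, and 1.87, 2.07 and 2.58 CPM in PMs against 2.42, 2.09 and 1.37 CPM in PM-LCs, neither called.

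The balance of mitosis to S phase transcripts was set apart by group. The mitosis sum as a percentage of the S phase sum was 9.83, 7.42 and 7.53% in MG and 88.2, 101 and 43.3% in MG-LCs. It was 25.7, 23.9 and 35.8% in PMs and 9.79, 30.6 and 10.8% in PM-LCs. All MG-LC libraries were above all MG libraries, while PM-LC replicates 1 and 3 were below every PM library. The share was 130.4, 42.2 and 67.6% in KCs and 88.8, 64.7 and 76.5% in KC-LCs. It was 51.4, 56.2 and 58.4% in AMs and 64.8, 44.3 and 51.6% in AM-LCs. The KC and AM groups overlapped with their cultures. Depth, the fibroblast list and, in KCs, the T cell and neutrophil lists moved with single libraries of these groups as given above, and their part in the shares was not tested.

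Among the 4 cultures, 4 of 47 genes (8.51%) differed, Top2a, Bub1 (edgeR adjusted p = 0.0352), Kif11 (edgeR adjusted p = 0.0343) and Cdkn2c, beside 7.85% of all 14813 genes tested. None of the 18 S phase genes was called with edgeR, where 14 had an unadjusted p under 0.05. DESeq2 called 12 and limma-voom 1 of them. The count over all 47 genes was 31 with DESeq2 and 16 without PM-LC replicate 2, and 0 without KC-LC replicate 1, PM-LC replicates 1 or 3 or any AM-LC replicate. The response to culture itself differed among the populations for 42 of 47 genes (89.4%), beside 36.3% of all 17408 genes tested (edgeR interaction test over 24 libraries). These were 19 of 19 mitosis, 15 of 18 S phase, 4 of 5 G1 and 4 of 5 inhibitor genes. Ccne2, Mcm3, Tyms, Cdk4 and Cdkn1b were not called.

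Further genes of the cycle were taken as lists by name. The shares of all genes to set beside them were 24.5% higher and 22.5% lower in MG-LCs, and 14.4% and 19.4% in KC-LCs. They were 16.8% and 12.1% in PM-LCs, and 25.9% and 22.9% in AM-LCs. Of 20 further S phase genes, 16 were higher in MG-LCs, 3 in KC-LCs and 2 in PM-LCs, and 7 were lower in AM-LCs. Of 30 further mitosis genes, 28 were higher and 1 lower in MG-LCs (median log2 fold change 5.22). In KC-LCs 8 of the 30 were higher, with a median of 1.11, although none of the 19 members was called. In PM-LCs 2 were higher and 2 lower, and in AM-LCs 1 was higher and 6 lower.

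Genes linked to p53 were read as a list. Of 10 such genes, of which 9 were tested in MG and KC, 5 were higher in MG-LCs, 3 in KC-LCs, 6 in PM-LCs and 4 in AM-LCs, where 24.5%, 14.4%, 16.8% and 25.9% of all genes were higher, and none was lower by edgeR. At an unadjusted p under 0.05, 1 was lower in KC-LCs (Sesn2) and 1 in PM-LCs (Sesn1, also called by DESeq2 and limma-voom). Mdm2, which encodes the ubiquitin ligase of p53, was called in all 4, with 75.3 ± 5.03 CPM in MG against 185 ± 60.1 CPM in MG-LCs, 66.1 ± 6.93 CPM in KCs against 259 ± 88.4 CPM in KC-LCs, 55.6 ± 9.02 CPM in PMs against 281 ± 8.43 CPM in PM-LCs, and 71.8 ± 3.98 CPM in AMs against 161 ± 6.93 CPM in AM-LCs (mean ± SD, n = 3). Its log2 fold changes were 1.3 ± 0.27, 1.94 ± 0.31, 2.34 ± 0.18 and 1.18 ± 0.11. Phlda3, an inhibitor of Akt, was called in all 4 as well, with 64.4 ± 1.73 CPM in AMs against 197 ± 79.4 CPM in AM-LCs and 6.53 ± 2.34 CPM in PMs against 62.6 ± 47.5 CPM in PM-LCs. Bax, which permeabilises mitochondria, had 57.3 ± 4.32 CPM in MG against 227 ± 43.1 CPM in MG-LCs (1.99 ± 0.2, edgeR adjusted p = 0.00145) and was called in MG-, KC- and PM-LCs. In AM-LCs Mdm2 and Phlda3 were thus called while Cdkn1a was not.

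Of 16 genes of pocket proteins, DREAM and quiescence, 4 were higher and 3 lower in MG-LCs, 3 and 1 in KC-LCs, 4 and 0 in PM-LCs, and 2 and 6 in AM-LCs (edgeR). Of all genes, 24.5% were higher and 22.5% lower in MG-LCs, 14.4% and 19.4% in KC-LCs, 16.8% and 12.1% in PM-LCs, and 25.9% and 22.9% in AM-LCs. In PM-LCs 1 was lower at an unadjusted p under 0.05, 1 with DESeq2 and 1 with limma-voom. Ccng1, cyclin G1, was higher in all 4 cultures, by log2 fold changes of 2.39 ± 0.24 (MG), 1.76 ± 0.3 (KC), 1.03 ± 0.22 (PM) and 0.96 ± 0.1 (AM). Tob1, an antiproliferative gene, was higher in MG-LCs (3 ± 0.52, edgeR adjusted p = 0.00665) and KC-LCs (2.2 ± 0.29, edgeR adjusted p = 0.00185) but lower in AM-LCs (-1.72 ± 0.16, edgeR adjusted p = 0.000277). Rbl1, which encodes the pocket protein p107, was lower in AM-LCs (56.6 ± 6.9 CPM in AMs against 20.3 ± 4.09 CPM in AM-LCs; -1.48 ± 0.17, edgeR adjusted p = 0.0006).

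Genes of macrophage self-renewal were also read by name. Maf, a transcription factor known to restrain the self-renewal of macrophages, had 0.329, 0 and 0.249 CPM in AMs against 4.83, 2.21 and 4.7 CPM in AM-LCs, from 11, 0 and 10 and 148, 58 and 131 reads (4.36 ± 1.04, edgeR adjusted p = 0.0116). All AM-LC libraries were above all AM libraries. Myc, a driver of growth and division, was lower in AM-LCs, with 159 ± 53.3 CPM in AMs against 37.2 ± 5.66 CPM in AM-LCs (-2.09 ± 0.25, edgeR adjusted p = 0.000737), and was not called in the other cultures. Klf2, a transcription factor also linked to self-renewal, fell from 946, 1088 and 1095 CPM in PMs to 27.4, 45.1 and 41 CPM in PM-LCs (-4.78 ± 0.26, edgeR adjusted p = 4.91e-05) and rose in MG-LCs (1.89 ± 0.3, edgeR adjusted p = 0.00511).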

How the data were processed

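Whole RNA of sorted macrophages and of cultures was amplified with a low-input kit that does not mark strand, tagmented and sequenced as single reads. According to the study's methods the authors trimmed reads with Trimmomatic 0.38, aligned them to mm10 and counted reads per gene with STAR 2.7.0a. The submitters' processing notes name Trimmomatic 0.36, STAR 2.5.2b and hg19 instead, while every identifier in the table is a mouse Ensembl gene. The deposited values are raw counts of reads per gene for 24 libraries in 8 groups of 3. No source says which libraries share mice, so that p-values measure the spread between these libraries. No group held libraries that agreed within counting noise (chi-squared per degree of freedom at least 12.9).

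Symbols, positions and exon lengths came from GENCODE M21 (45143 of 45706 genes had a symbol). The 47 genes and all lists were chosen with earlier results of these data known. Genes with too few reads were removed (filterByExpr, minimum count 10), and edgeR 4.0.16 (R 4.3.3) fitted quasi-likelihood models with TMM factors. All comparisons were two-sided with Benjamini-Hochberg adjustment over all genes tested, at 0.05. Log2 fold changes are in vitro minus ex vivo, from the 6 libraries of a population. SE is the absolute log2 fold change divided by the square root of F. The scripts were tested on simulated data. Alternatives were limma-voom (limma 3.58.1), DESeq2 1.42.0, other scalings and filters, a replicate block, 1 model of 24 libraries, an added limit of 1.5 on the log2 fold change, and leaving out libraries. Genes named with all values were the G1 and inhibitor classes, Mcm5, Pcna, Rrm2, Tyms, E2f1, Mki67, Top2a, Ccnb1, Cdk1, Plk1 and, per population, the S phase and mitosis genes of largest and smallest change. Mcm6, Rrm1, Aurkb, Cenpf and other members named beside these were chosen after their values were seen. Counting error alone is covered by the limit of 3 reads. The counts over the self-renewal list, 1 of its genes and 1 marker list are not reported here.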

Additional observations from a re-analysis of the deposited data

Results flagged for a closer look

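The response to culture differed among the 4 populations for 42 of the 47 genes by the interaction test of edgeR, and the 17 of them for which all library values are given are listed here with their adjusted p. Among the G1 genes these were Ccnd1 (0.000224), higher in AM-LCs only, Ccnd2 (0.00242), higher in MG-LCs and lower in AM-LCs, Ccnd3 (0.000504), lower in PM- and AM-LCs, and Cdk6 (0.00203), lower in AM-LCs. Among the S phase genes they were E2f1 (1.34e-08), higher in MG- and PM-LCs and lower in AM-LCs, Pcna (0.000597), higher in MG-, KC- and PM-LCs, Rrm2 (0.000987) and Mcm5 (0.00861), both called in MG-LCs only. Among the mitosis genes they were Top2a (3.23e-05), Cdk1 (0.000984), Ccnb1 (0.00351), Mki67 (0.00436) and Plk1 (0.0249), all higher in MG-LCs. Among the inhibitors they were Cdkn2c (0.000142), Cdkn1a (0.000158), Cdkn1c (0.000707) and Cdkn2a (0.000751), of which Cdkn1c was the inhibitor called in AM-LCs.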

How the results depend on the processing

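Of the comparisons of log2 fold changes under other tools, scalings, filters and models, 1393 kept their direction and their side of the threshold, 39 passed it newly and 61 no longer passed it, with none turned. Leaving out 1 library gave 996, 37 and 88, and turned 1, Ccna2 in PM-LCs without PM-LC replicate 2 (-1.59, in a range up to 0.71 over the libraries left out). The counts of members called moved by over 1.5 times as follows. Shares of all genes were not taken with other tools, scalings, filters or models or without a library, so those counts have none beside them. KC-LCs had 12 higher with DESeq2 and 12 with all 24 libraries in 1 model. PM-LCs had 2 lower with DESeq2. AM-LCs had 10 lower with all 24 libraries in 1 model, and 2 higher and 4 lower with the added limit of 1.5 on the log2 fold change. Differences among cultures numbered 31 with DESeq2, 2 with limma-voom and 7 without the 3 libraries with the most fibroblast RNA, an alternative chosen after seeing the data. Leaving out 1 library gave 29 to 42 higher and 0 lower in MG-LCs, 4 to 17 higher and 0 to 1 lower in KC-LCs, 3 to 7 higher and 1 to 14 lower in PM-LCs, and 5 to 7 higher and 12 to 23 lower in AM-LCs. It gave 45 to 47 for the sorted populations, 0 to 16 for the cultures and 37 to 44 for the interaction. The causes were not tested. The median over all genes shifted by over 0.1 (log2) only for KC without a filter (-0.24), for KC without KC-LC replicates 1 or 3 and for MG with limma-voom, the block or without an MG replicate. Genes with under 3 reads in a group, such as Cdkn2a in AMs, are limited by depth.

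Deviations of same-numbered libraries correlated by -0.104 to 0.0558 over 12 pairs, and those of differently numbered libraries by -0.115 to 0.0711. Values near 0 cannot exclude shared mice, because cultures may vary for reasons of their own. Whether the replicate numbers pair the samples is therefore unknown. With the replicate block, KC-LCs had 14 higher and 2 lower, PM-LCs 4 higher, and the cultures differed for 1 gene. Mki67 was then called lower in KC- and AM-LCs and Ccnd1 higher in KC-LCs.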

Other observations

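Markers often used for dividing cells, Mki67 and Top2a, did not keep their ratio between sorted and cultured cells. The ratio of Top2a to Mki67 CPM was 0.695, 1.61 and 0.848 in KCs and 3.05, 4.55 and 4.18 in KC-LCs. It was 1.67, 1.41 and 1.56 in AMs and 4.33, 6.17 and 2.04 in AM-LCs, and 1.28, 1.11 and 0.571 in MG and 3.62, 2.7 and 2.5 in MG-LCs. In these 3 tissues every culture was above every sorted library. In PMs it was 0.823, 1.59 and 1.76 and in PM-LCs 22.9, 1.19 and 1.78, where the PM-LC libraries held 7, 340 and 72 Mki67 reads. The annotated exons add up to 10061 bases for Mki67 and 9013 for Top2a. The mean CPM of Top2a was higher in KC-LCs than in KCs, and lower in AM-LCs than in AMs. Cenpf and Cenpe (15433 and 8620 bases) had log2 fold changes of -1 ± 0.75 and -0.88 ± 0.6 in KC-LCs and -1.73 ± 0.41 and -1.73 ± 0.56 in AM-LCs. They were picked after their values were seen, and exon length was not set beside the changes of the other members. The pattern was noticed in the data and was not tested.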
